A study of Homo sapiens with 2 samples.

Results

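NeuroD1 binding at the genes of the core cell cycle machinery was read from a ChIP-seq peak list of IMR-32 cells, an established human neuroblastoma cell line with MYCN amplification. In ChIP-seq, DNA that is cross-linked to a protein is recovered with an antibody and sequenced, and places where reads exceed the surrounding level are listed as peaks. There is 1 ChIP library from wild-type IMR-32 cells with an antibody to NeuroD1 and 1 input library without antibody. Values come from the peak list of the former. The latter was not analysed directly here, though the peak caller may have used it as control. No treatment is named in the labels. The antibody is NeuroD1 in the sample labels, while the written ChIP-seq procedure of the study names an antibody to H3K27Ac, and the list was used as labelled. With 1 library there was no replicate to test against, and intervals given here cover counting error only.

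The genes examined were 40 cyclins, cyclin-dependent kinases (CDKs), CDK inhibitors, E2F and DP transcription factors, pocket proteins, CDC25 phosphatases and WEE1, of 20037 protein-coding genes on chromosomes in RefSeq of GRCh38.p14. They were listed by name and role, with earlier results of these data known. A gene was counted as having a peak when a peak overlapped its body or lay up to 3 kb from either end. All 40 were found by symbol.

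In the cell cycle, cyclins bind and activate CDKs in turn. D-type cyclins with CDK4 and CDK6 act in G1, cyclin E with CDK2 at entry into S phase, and cyclin A and cyclin B with CDK2 and CDK1 in S phase and mitosis. The INK4 and CIP/KIP inhibitors restrain these kinases. Phosphorylation of the pocket proteins RB1, RBL1 and RBL2 releases E2F factors, which bind DNA together with a DP partner and control genes of DNA replication. NeuroD1 is a basic helix-loop-helix factor of neuronal differentiation that binds E-boxes, short DNA words of the form CANNTG.

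NeuroD1 peaks were found at 15 of the 40 cell cycle genes (37.5%, with a 95% Clopper-Pearson exact interval of 22.7% to 54.2%), with 20 peaks in all. Among all protein-coding genes, 21.4% had a peak by the same rule. Longer genes had a peak more often, from 8.88% in the shortest to 36.2% in the longest of 10 length bins. The cell cycle genes had a median length of 18379 bp, against 24115 bp for all protein-coding genes. Given their lengths, a share of 20.8% was expected, or 8.33 of the 40 genes. The share of the 40 genes was thus 16.7 percentage points higher than that of protein-coding genes of like length, and its interval did not reach the expected share. That last statement depends on the assignment of peaks to genes. With gene bodies alone, 11 genes had a peak (27.5%, 14.6% to 43.9%, against 15.2% expected). When each peak went only to its nearest gene, coding or noncoding, 11 also had one (against 16.1% of all protein-coding genes). In both cases the interval held the share it was set against.

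The counts by role are set beside the share of 21.4% over all protein-coding genes. Of the 8 E2F genes, 4 had a peak, with 7 peaks, and with the pocket proteins and DP partners the count was 6 of 13 genes. Of the 6 CDK genes, 3 had a peak, and of the 8 inhibitor genes of the CDKN group, 3 had a peak. Of the 9 cyclin genes, only CCND3 had a peak by the 3 kb rule. These groups are small, and the differences between them were not tested.

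At the summits of these 20 peaks, the fold enrichment had a median of 6.63 (5.97 to 7.91 as the 95% interval over these peaks) and a range from 3.93 to 37.2. This value is the read pileup at the summit divided by the background around it, after 1 is added to both. The median of all 6183 peaks was 6.79, with quartiles of 5.79 and 8.68. The number of reads at a summit was solved from its fold enrichment and p-value. It had a median of 17 in the 20 peaks and of 17 in all peaks. The implied local background lay between 1.04 and 3 reads at the 20 peaks, against 1.04 to 98.0 over the whole list. The median height of the group thus lay near that of the list, while 4 of the 20 peaks, at E2F6, TFDP2, E2F1 and CDK2, lay above the upper quartile of all peaks and a CDK6 peak ranked 5990 of 6183.

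The highest peak of the group lay at E2F6, a repressive E2F that acts without pocket proteins. Its peak, on chromosome 2 from 11466006 to 11466446 (hg38), was 37.2-fold over background, with a −log10 q of 115. At the summit 88 reads were stacked (70.6 to 108, the 95% exact Poisson interval, as for all reads given in parentheses here), on a background of 1.34. Ordered by fold enrichment it was number 15 of the 6183 peaks, and number 14 when ordered by q. The interval of its fold enrichment, 29.9 to 45.8, did not overlap that of any other peak of the group, with the backgrounds held fixed.

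The next highest values were found at TFDP2 and E2F1. TFDP2 encodes a DP partner of the E2F factors, and its peak had a fold enrichment of 11.6 with 23 reads (14.6 to 34.5). E2F1, an activating E2F, had a pair of peaks. The higher one, with a fold enrichment of 11.1 and 22 reads (13.8 to 33.3), had its summit 1051 bp downstream of the listed start, inside the gene body. The lower one had a fold enrichment of 5.79 and 11 reads (5.49 to 19.7), with its summit 113 bp upstream of the start. The intervals of neighbouring peaks in the order of height overlapped below E2F6, so that order is not resolved at this depth.

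E2F3, another activating E2F, had a peak at each of its 2 listed starts. At the upstream start the fold enrichment was 7.24 with 15 reads (8.40 to 24.7), and at the downstream start it was 6.51 with 13 reads (6.92 to 22.2). Both peaks also lay within 3 kb of the gene LOC124901482. E2F7, an atypical repressor of E2F targets, had a peak just upstream of its start (5.88-fold, 14 reads, 7.65 to 23.5) and a second, 7.88-fold peak 17571 bp downstream inside the gene. RBL1, a pocket protein that works with repressive E2Fs, had a peak of 8.20-fold with 16 reads (9.15 to 26.0) across its start. No peak within 3 kb was listed for E2F2, E2F4, E2F5, E2F8, RB1, RBL2 or TFDP1. RB1 was the gene farthest from any peak of the list, at 1.64 Mb.

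Among the kinases, CDK6 had 2 peaks deep inside its long gene body, 65242 and 78736 bp downstream of the nearest listed start. Their fold enrichments were 3.93, the lowest of the group, and 6.13, with 15 reads (8.40 to 24.7) and 12 reads (6.20 to 21.0). The lower one lay on a background of 3 reads and had a −log10 q of 2.76. CDK2 and CDK4 had peaks outside their gene bodies. The CDK2 peak (9.98-fold, 27 reads, 17.8 to 39.3) lay 794 bp beyond the gene, with its summit 203 bp upstream of the start of RAB5B. The CDK4 peak (7.69-fold, 24 reads, 15.4 to 35.7) lay 2687 bp beyond the end of CDK4 that is opposite its start, with its summit 54 bp upstream of the start of TSPAN31. Both peaks were thus closer to the start of a neighbouring gene than to the kinase gene. No peak was listed within 3 kb of CDK1, CDK5 or CDK7.

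CCND3 was the D-type cyclin with a peak. This peak (6.27-fold, 12 reads, 6.20 to 21.0) lay 405 bp beyond the gene, 1813 bp upstream of the nearest listed start of CCND3, and overlapped the neighbouring gene TAF8. The nearest peak to CCND1 lay 217 kb from the gene and the nearest to CCND2 at 561 kb. For cyclin E, these distances were 95.2 kb at CCNE1 and 132 kb at CCNE2. CCNA1 and CCNA2 lay 461 and 909 kb from the nearest peak, and CCNB1 and CCNB2 lay 951 and 171 kb from it. For CDK1, the kinase of mitotic entry, the distance was 872 kb.

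Of the inhibitors, CDKN1A, a p53 target that inhibits cyclin-CDK complexes, had a peak across its listed start (7.91-fold, 20 reads, 12.2 to 30.9). The noncoding gene DINOL also lay within 3 kb of it. CDKN2C, an INK4 inhibitor of CDK4 and CDK6, had a peak near 2 of its 3 listed starts. The peak upstream of its first start (6.74-fold, 18 reads, 10.7 to 28.4) had its summit 426 bp from that start and 52 bp from the start of the neighbouring gene FAF1. The peak at its second start (5.97-fold, 17 reads, 9.90 to 27.2) had its summit 114 bp upstream and no other protein-coding gene within 3 kb. CDKN3, a phosphatase that acts on CDKs, had a peak with its summit 186 bp upstream of the start (5.89-fold, 17 reads, 9.90 to 27.2). The adjacent INK4 genes CDKN2A and CDKN2B lay 1.28 and 1.32 Mb from the nearest peak, and CDKN2D and CDKN1C lay 63.4 and 275 kb from it.

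The CDC25 phosphatases remove the inhibitory phosphate that WEE1 adds to CDKs. CDC25A had a peak across its start (6.27-fold, 12 reads, 6.20 to 21.0) and no other protein-coding gene within 3 kb of it. CDC25C had a wide peak (5.40-fold, 21 reads, 13.0 to 32.1) whose summit lay 365 bp downstream of its nearest start and 290 bp upstream of the start of FAM53C. CDC25B and WEE1 had no peak within 3 kb, and their nearest peaks lay 5.69 and 113 kb away.

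The 3 kb limit fell between CDK4, whose peak was 2687 bp from the gene, and CDKN1B, whose nearest peak was 3072 bp away with a height of 8.20-fold (−log10 q of 12.2). Of the 25 genes without a peak, 4 had a peak within 50 kb (CDC25B, CDK5, CDKN1B and E2F4) and 19 had none within 100 kb. No such counts over all protein-coding genes are given here, so these distances cannot be called particular to these genes. A gene without a listed peak is not shown to be unbound, since the list holds only positions that passed the threshold of the peak caller. At the lowest background, which 33.8% of all peaks had, the fewest reads at a listed summit were 8.

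Most peaks of the group lay at gene starts. RefSeq starts were given for 32 of the 40 genes. They were not given for CCND1, CCND2, CCNE2, CDK2, CDKN1C, E2F5, E2F8 or WEE1. A peak overlapped the promoter window, taken from 250 bp before to 50 bp after a start, in 11 of the 32 genes (34.4%, 18.6% to 53.2%), against 13.7% of 15843 protein-coding genes with a listed start. This window has the same length at every gene, so gene length does not enter, although genes with several starts have several windows. Among genes with a listed start and a peak by the 3 kb rule, the peak reached a promoter window in 11 of 14 cell cycle genes (78.6%, 49.2% to 95.3%) and in 61.6% of 3517 protein-coding genes, so that difference is within counting error. Of the 20 peaks, 15 overlapped a promoter window of some protein-coding gene (75%), against 44.1% of the 4568 peaks at protein-coding genes. These 15 include the peaks at CDK2 and CDK4, which lay in windows of the neighbours RAB5B and TSPAN31. Neither share takes account of gene length, and the difference was not tested. Measured from the nearest listed start of the cell cycle gene itself, 13 of 19 summits lay within 1 kb and 12 of these lay upstream. Counted by gene and by any part of a peak, 11 of the 14 cell cycle genes (78.6%, 49.2% to 95.3%) had a peak within 1 kb of a start. The share was 70.3% of the 3517 protein-coding genes, which lies inside that interval.

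The promoter sequences under 7 of these peaks are shown, namely that under the highest peak (E2F6) and those in which the E-box word CAGCTG lay inside a peak across a start of the gene (the others). Each is the part of the RefSeq promoter window (GRCh38.p14) that lay inside the peak, written 5′ to 3′ on the strand of the gene and ending at most 20 bases after the start. Capitals mark every CANNTG, which reads as CANNTG on both strands.
E2F6, chr2:11466142-11466411, minus strand: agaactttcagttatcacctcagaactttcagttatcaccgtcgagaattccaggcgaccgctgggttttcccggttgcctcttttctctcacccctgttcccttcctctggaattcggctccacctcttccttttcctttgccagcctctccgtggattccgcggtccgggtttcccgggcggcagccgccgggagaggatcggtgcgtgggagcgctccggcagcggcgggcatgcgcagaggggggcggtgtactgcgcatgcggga
TFDP2, chr3:142149525-142149787, minus strand: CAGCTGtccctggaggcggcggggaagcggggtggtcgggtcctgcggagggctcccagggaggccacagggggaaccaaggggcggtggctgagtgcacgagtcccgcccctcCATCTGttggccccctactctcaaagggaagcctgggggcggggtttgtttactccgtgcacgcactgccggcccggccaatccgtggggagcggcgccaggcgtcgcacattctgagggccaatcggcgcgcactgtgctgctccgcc
CDKN1A, chr6:36678516-36678733, plus strand: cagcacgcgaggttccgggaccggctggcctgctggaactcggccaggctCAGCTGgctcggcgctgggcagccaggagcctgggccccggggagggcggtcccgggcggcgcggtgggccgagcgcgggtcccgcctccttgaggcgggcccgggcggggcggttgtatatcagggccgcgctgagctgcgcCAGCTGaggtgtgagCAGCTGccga
E2F3, chr6:20403369-20403633, plus strand: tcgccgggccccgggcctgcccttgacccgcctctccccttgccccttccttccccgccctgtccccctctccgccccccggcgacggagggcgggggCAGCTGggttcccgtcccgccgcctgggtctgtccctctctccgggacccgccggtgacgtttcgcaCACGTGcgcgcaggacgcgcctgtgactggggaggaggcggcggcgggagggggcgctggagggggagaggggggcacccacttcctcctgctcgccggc
CDKN2C, chr1:50968468-50968711, plus strand: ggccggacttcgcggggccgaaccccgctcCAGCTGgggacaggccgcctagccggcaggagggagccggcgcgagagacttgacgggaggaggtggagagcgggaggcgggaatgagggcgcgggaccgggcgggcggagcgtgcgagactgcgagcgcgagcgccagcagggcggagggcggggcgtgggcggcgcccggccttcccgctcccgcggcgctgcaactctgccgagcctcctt
RBL1, chr20:37095983-37096247, minus strand: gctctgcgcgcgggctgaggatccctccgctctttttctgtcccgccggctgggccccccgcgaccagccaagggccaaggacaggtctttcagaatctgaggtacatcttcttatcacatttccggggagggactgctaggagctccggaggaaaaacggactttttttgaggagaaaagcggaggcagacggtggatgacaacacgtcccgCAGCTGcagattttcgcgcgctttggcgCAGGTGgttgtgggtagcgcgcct
CDC25A, chr3:48188398-48188544, minus strand: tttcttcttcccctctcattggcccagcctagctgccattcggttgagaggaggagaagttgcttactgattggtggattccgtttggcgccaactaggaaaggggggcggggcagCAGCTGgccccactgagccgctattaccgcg

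The summit at TFDP2 fell on an E-box. Its word CATCTG, which reads CAGATG on the other strand and is a word that NeuroD1 is known to bind, began 129 bp upstream of the start, and the summit lay 128 bp upstream. At E2F3 the word CAGCTG lay 147 bp and the word CACGTG 80 bp upstream of the downstream start, on either side of a summit at 105 bp upstream. The CDKN1A window held CAGCTG at 148 and 5 bp upstream and 10 bp downstream of the start, with the summit 68 bp upstream. At CDC25A the word began 11 bp and at RBL1 37 bp upstream of the start, with summits 45 and 119 bp upstream. At the second start of CDKN2C it began 208 bp upstream, with the summit 114 bp upstream. In contrast, the E2F6 window held no CANNTG, although it lay under the highest peak. This says only that these letters are not in the window, which spans 250 bp before to 50 bp after the start, while the peak spans 285 bp before to 155 bp after it.

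Counted by gene, CANNTG was found in a promoter window with a peak in 10 of 11 cell cycle genes, against 58.4% of all 2165 protein-coding genes with a peak in a window and 70.5% of all protein-coding genes with a start. With or without a peak, 84.4% of the 32 cell cycle genes with a start held it in a window. The more specific word CAGCTG was found in 6 of the 11 (CDC25A, CDKN1A, CDKN2C, E2F3, RBL1 and TFDP2), against 20.1% of genes with a peak in a window and 22.7% of all genes with a start. With or without a peak, 37.5% of the 32 cell cycle genes held it. CAGATG or CATCTG was found in CDC25C and TFDP2, 2 of the 11 (18.2%), against 8.73% of genes with a peak in a window and 15.4% of all genes with a start. In CDC25C the word lay outside the peak, 556 bp from its summit. The E2F word TTTGGCGC, searched like the others on both strands, was found in CDC25A, E2F1 and RBL1, 3 of the 11, against 1.43% of genes with a peak in a window and 1.09% of all genes with a start. It was also found in E2F2, which had no peak, so 4 of the 32 cell cycle genes (12.5%) held it. In RBL1 its last base is the first base of a CAGGTG. In E2F1 the word TTTGGCGC lay in the window but outside the peak. The E2F word TTTCCCGC was found in E2F3, against 3.46% of genes with a peak in a window and 2.65% of all genes with a start. CACGTG was found in CDKN2C and E2F3, against 11.1% and 10.9%, and in 6 of the 32 cell cycle genes (18.8%). In CDKN2C this word lay outside the peak, 208 bp from its summit. The shares of genes with a peak count only windows with a peak, while those of all genes with a start count any window of the gene. The 2 are thus not alike. Counted by window, CAGCTG was in 18.7% of windows with a peak and 18.0% of all windows, and CANNTG in 56.2% and 65.1%. CAGATG or CATCTG was in 8.23% of windows with a peak and 12.2% of all windows. Words of 6 letters are frequent in DNA, and windows of 11 genes are few, so these counts are descriptions and were not tested.

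Other genes that work with this machinery, namely binding partners, ubiquitin ligase factors, mitotic and checkpoint kinases, licensing factors and MuvB subunits, were read in the same way. Of 26 such genes, 7 held a peak (26.9%, 11.6% to 47.8%), against 20.7% expected from their lengths. This share is within counting error of both the expected share and that of the 40 genes. The 7 genes were FBXO5 (9.03-fold), an inhibitor of the anaphase-promoting complex, LIN52 (8.68-fold) and LIN9 (5.23-fold), subunits of MuvB, SKP2 (8.13-fold), which targets CDKN1B for degradation, CKS1B (5.89-fold), which works with SKP2, the checkpoint kinase CHEK2 (4.69-fold) and CCNF (4.34-fold). In 6 of the 7 the summit of the highest peak lay within 1 kb of a start, with SKP2 as the exception. Unlike for the 40 genes, any neighbouring gene that shares these peaks is not named here. Counted by any part of any peak, 70.3% of all protein-coding genes with a listed start and a peak had one within 1 kb of a start. No peak was listed within 3 kb of PLK1, CDC20, FOXM1, MYBL2, CHEK1, CDC6 or CDT1, among others.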

How the data were processed

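NeuroD1 ChIP-seq of 1 IMR-32 library was analysed from the peak list deposited by the authors. Per the labels, BWA 0.7.17, MACS2 2.2.7 and hg38 were used, while the peak names carry macs3. Whether the input served as control and which q threshold was set is not given in the sources used here. The background, and so the fold enrichment, may therefore depend on the input. The highest q was 0.0414.

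The deposited fold enrichment is a ratio of pileup to local background at the summit. The authors also deposited −log10 values of p and q, and a score, which is 10 times that −log10 q cut to a whole number. A further deposited column equals fold enrichment divided by peak width in all 6183 rows and was not used. Reads and background per summit were solved from the fold enrichment and −log10 p with the Poisson formula of MACS. The step between fold enrichments at the lowest background gave a weight of 0.98 per read and a background of 1.04. For 6181 of 6183 peaks the solved values gave back the −log10 p within 0.001. The solver was tested on simulated data. The total of reads is unknown. Intervals are exact Poisson and Clopper-Pearson intervals at 95%, for counting error only. Those of fold enrichment hold the background fixed and leave out its own counting error.

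Gene bodies, starts and promoter windows were taken from RefSeq of GRCh38.p14. Exons were not used. A peak could count for several genes. The share expected from length is the mean, over the genes, of the share in 10 bins of equal gene number. Words were searched on both strands. Every member with a peak is named, and of the other lists every gene with a peak. Members and lists were chosen with earlier results of these data known. Alternatives were thresholds on −log10 q and fold enrichment, summits, other distances, other length bins, the nearest gene alone and, added after seeing the data, matching on chromosome. Scripts ran under Python 3.11.15 with scipy 1.17.1, pandas 2.3.3, numpy 2.4.6 and, for plots, matplotlib 3.10.9.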

Additional observations from a re-analysis of the deposited data

How the results depend on the processing

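The number of cell cycle genes with a peak was 15 with a −log10 q of at least 5, with at least 5-fold enrichment and with the summit in place of the interval. It was 11 for gene bodies alone, 14 with 1 kb, 17 with 10 kb on each side, which added CDC25B and CDKN1B, and 11 when each peak went only to its nearest gene. In that last setting CCND3, CDK2, CDK4 and CDKN1A lost their peak, and 16.1% of all protein-coding genes had one. Noncoding genes could take peaks there. The CDKN1A peak lay inside its gene body, with only the noncoding gene DINOL also within 3 kb. No share expected from length was computed for the nearest gene alone, where the cell cycle genes stood at 27.5%. In the other settings their share lay above that expected from length, by 12.3 (gene bodies alone) to 20.8 percentage points (−log10 q of at least 5), and by 15.5 points when matched on chromosome in place of length, which was added after seeing the data. The number of peaks at these genes moved from 20 to 12 for gene bodies alone, as fewer bases are covered. The median fold enrichment stayed within its interval, from 6.51 to 7.20. With 1 library, no replicate could be left out. No paired analysis was made, because there is a single ChIP library and the input library was not analysed directly. For CCND3, CDK2, CDK4 and CDKN3, gene bodies alone gave no peak and so no height. Apart from E2F6, the summits at these genes rested on 11 to 27 reads.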

Other observations

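Cyclins and CDKs outside the cell division cycle were read from the same list. Of 17 genes for transcriptional cyclins and CDKs and the Mediator subunits MED12 and MED13, 7 carried a NeuroD1 peak (41.2%, Clopper-Pearson 18.4% to 67.1%), against 22.7% expected from their lengths. They were CDK12 (9.95-fold, 21 reads, 13.0 to 32.1) and its cyclin CCNK (6.27-fold), CDK13 (6.22-fold), CDK19 (6.12-fold) and CCNC (6.34-fold) of the Mediator kinase module, MED13 (8.62-fold) and CCNL1 (7.01-fold). In 6 of the 7 the summit of the highest peak lay within 1 kb of a listed start, and for MED13 no start was given. By any part of any peak, that was so in 70.3% of all protein-coding genes with a listed start and a peak. No peak within 3 kb was listed for CDK8 or CDK9.

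Of 24 genes for atypical cyclins, atypical CDKs and activators of CDK5, a kinase of postmitotic neurons, 8 had a peak (33.3%, 15.6% to 55.3%), against 23% expected from length. CDK5 itself had none within 3 kb, while both of its activators did. The peak at CDK5R1 had a fold enrichment of 7.18 with 14 reads (7.65 to 23.5), with its summit 456 bp upstream of the start. The peak at CDK5R2 had a fold enrichment of 7.23 with 14 reads (7.65 to 23.5), with its summit 76 bp upstream. The highest value of this list was 13.0, at CABLES2, which links CDKs to other kinases, with 26 reads (17 to 38.1). The other genes with a peak were CABLES1, CCNJ, CCNY, CDK17 and CDKL1. The intervals of both lists include the share expected from length as well as that of the 40 cell cycle genes, and no difference between the lists was tested. Any neighbouring gene that shares a peak of these lists is not named here.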
